A study of Mus musculus with 12 samples.

Results

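Immediate early response genes were followed across tumors and livers of mice that lack the atypical E2F transcription factors E2F7 and E2F8. The 9 genes, taken by symbol, were Fos, Fosb, Jun, Junb, Egr1, Atf3, Ier2, Ier3 and Dusp1. All 9 were found among the 19012 gene symbols of the deposited tables. RNA sequencing covered 4 E2F7/8 double knockout (DKO) liver tumors, 4 DKO livers and 4 wild-type livers of mice, 12 libraries in all. Per the names of the deposited tables, the tumor and the liver with the same replicate number carry the same animal code, so every DKO liver came from an animal with a tumor, and wild-type livers carry other codes. Loss of E2f7 and E2f8 and bearing a tumor cannot be told apart in the DKO livers. How and in which cells the genes were deleted, and the age, sex and strain of the animals, are not given in the sources used here.

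Immediate early genes are transcribed within minutes of a growth factor, cytokine or stress signal, because the transcription factors that drive them are already present and are switched on by phosphorylation. MAP kinases act on the ternary complex factors that sit with SRF, and on CREB and ATF proteins. FOS and JUN proteins pair to form AP-1, EGR1 is a zinc finger activator, and other members limit the response, among them DUSP1, which removes the activating phosphates of MAP kinases. In liver these genes are known for their brief rise after partial hepatectomy and after injury. Their transcripts are short-lived.

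Promoters of 7 of the 9 genes were read from a RefSeq table (GRCm38.p6), and those of Egr1 and Ier2 were not used here. Over the 250 bases before the start, the core TGACG of the cyclic AMP response element (CRE), read on both strands, was present in 5 of the 7, namely Fos, Fosb, Junb, Atf3 and Dusp1. It was present in 17.8% of 32851 promoters in the same window. Dusp1 alone of the 7 held the full CRE TGACGTCA, which 1.55% of all promoters hold and which contains the core. The CArG box of SRF (1.47% of all promoters), the AP-1 element TGANTCA (6.75%) and the E2F element TTTNNCGC (4.28%) matched none of the 7 windows. Bases farther from the start were not read, so these genes may hold such elements outside the window. The sequences of Fos and Atf3 are shown because these were the 2 members called below, and that of Dusp1 because it holds the full CRE. Capitals mark the core on either strand, and each sequence runs 5′ to 3′ toward the start of its gene, on the plus strand for Fos (chr12:85473640-85473889) and the minus strand for Atf3 (chr1:191183334-191183583) and Dusp1 (chr17:26508473-26508722).
Fos: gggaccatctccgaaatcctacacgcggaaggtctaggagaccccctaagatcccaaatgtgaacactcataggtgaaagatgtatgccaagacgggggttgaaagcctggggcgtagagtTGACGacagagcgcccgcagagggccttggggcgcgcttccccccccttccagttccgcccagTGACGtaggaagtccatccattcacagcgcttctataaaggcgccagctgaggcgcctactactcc
Atf3: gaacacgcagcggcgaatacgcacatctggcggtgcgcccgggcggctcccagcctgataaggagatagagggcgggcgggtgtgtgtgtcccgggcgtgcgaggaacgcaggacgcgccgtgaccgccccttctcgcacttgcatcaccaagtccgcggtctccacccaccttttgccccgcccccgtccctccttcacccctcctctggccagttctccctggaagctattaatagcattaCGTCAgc
Dusp1: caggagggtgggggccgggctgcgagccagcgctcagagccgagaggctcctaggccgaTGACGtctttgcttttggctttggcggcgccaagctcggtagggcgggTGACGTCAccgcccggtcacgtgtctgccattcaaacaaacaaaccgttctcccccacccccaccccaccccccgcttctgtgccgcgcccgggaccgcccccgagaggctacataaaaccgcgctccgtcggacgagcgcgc
In Fos the core begins 129 and 66 bases before the start, and in Dusp1 it begins 191 bases before the start and within the CRE that begins 143 bases before it. In Atf3 it lies 7 to 3 bases before the start, on the opposite strand. A match describes the letters and says nothing about binding.

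Library depth was 12.702 to 15.956 M reads (M, mega) in DKO tumors, 9.274 to 12.323 M in DKO livers and 7.985 to 14.234 M in wild-type livers. Levels are in RPKM, that is, scaled to 1 kb of exon and M reads of library, and so can be set side by side between genes. All 12 hepatocyte markers listed were above 0 in every group, Alb being at 57600 to 109000 RPKM in DKO tumors, 20700 to 98600 in DKO livers and 33100 to 53900 in wild-type livers. Trf, Apoa1 and Ttr were at 10100 to 27300, 6810 to 12500 and 1460 to 6090 RPKM over the 12 libraries. E2f8 was at 1.66 to 12.2 RPKM in DKO tumors, 2.8 to 20.8 in DKO livers and 1.66 to 4.30 in wild-type livers, and E2f7 was at 0.0365 to 0.259, 0.211 to 0.4 and 0.103 to 0.2 RPKM in the same groups, so these sums over all exons do not check the deletion. In bulk tissue, fewer cells of a type and less RNA per cell cannot be told apart.

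By level, Egr1 led in all 4 DKO tumors, with 28.2 to 52.6% of the summed RPKM of the 9 genes. In DKO livers the leading gene was Ier2, Dusp1, Dusp1 and Egr1 in replicates 1 to 4, and in wild-type livers it was Egr1, Dusp1, Ier2 and Egr1. The sum of the 9 was 61.9 to 72.0 RPKM in DKO tumors, 60.7 to 88.6 in DKO livers and 32.1 to 66.8 in wild-type livers. Wild-type liver 1, the shallowest library, was at 66.8 and the other wild-type livers were at or below 43.9, so DKO libraries and wild-type livers overlapped only through that library. In DKO tumors Egr1 averaged 24.9 ± 6.62 RPKM (SD, n = 4), and its lowest tumor, at 20.3, was above every tumor value of each other member. Below it stood Atf3, Ier2, Dusp1 and Jun at means of 9.55, 9.46, 8.33 and 7.64 RPKM, whose ranges overlapped, then Junb at 4.41, Fos at 1.82, Ier3 at 1.32 and Fosb at 0.0888.

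**Figure D1:**
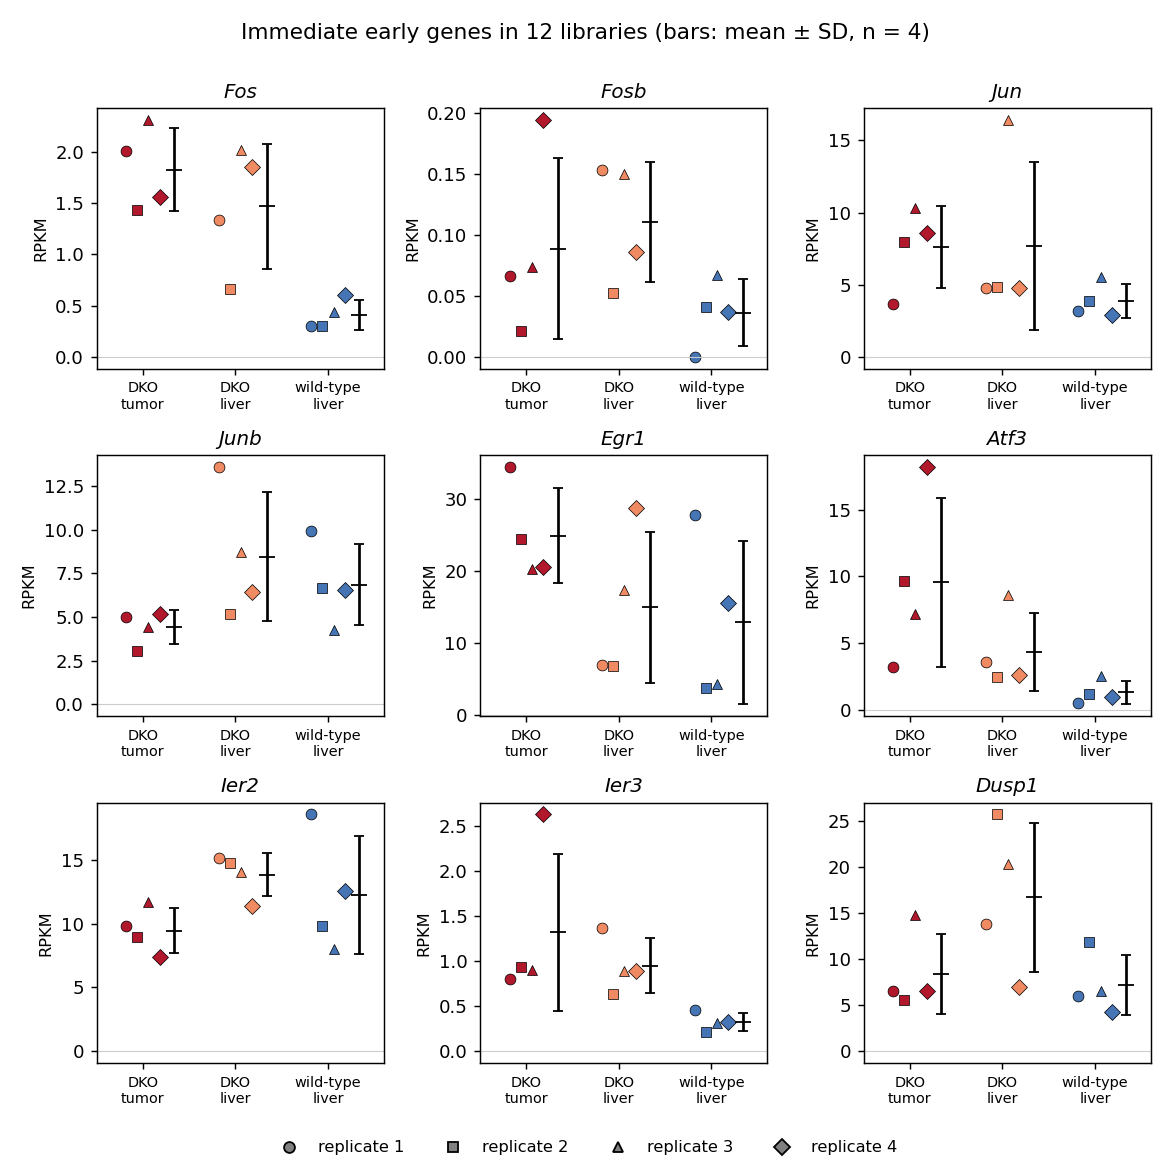
RPKM of the 9 genes in each library, grouped as DKO tumor, DKO liver and wild-type liver, with a marker per replicate number and the group mean ± SD beside the points. For Fos and Ier3 every DKO tumor and DKO liver lies above every wild-type liver, and for Atf3 every DKO tumor does. Each panel has its own linear RPKM axis.

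DKO tumors were set against wild-type livers, from which they differ in genotype as well as in tissue. Loss of E2f7 and E2f8 and tumor state cannot be told apart in this comparison. Fos and Atf3 were higher in the tumors and passed the test, with mean RPKM 4.44 and 7.34 times that of wild-type livers, and no member was called lower. That is 2 of the 8 members tested, where 1.90% of all 11351 genes tested were called, 1.23% higher and 0.670% lower. The groups did not overlap for 3 of the 8, all higher in tumors (Fos, Atf3 and Ier3), against 11.9% of all genes in either direction, 5.57% higher and 6.32% lower. The log2 difference was above 0 for 6 of the 8, as for 47.1% of all genes, and unadjusted limma p was under 0.05 for 4 of the 8, where 19.2% of all genes had such a p. Genes were tested where at least 4 libraries had 0.5 RPKM or more. Fos reached that level in 1 wild-type liver and Ier3 in 0, so both were tested through the DKO libraries where they are high, and the counts over tested members carry that selection. The median log2 difference of the 8 was 0.76, against -0.02 for all genes. Members and gene lists were chosen with earlier results of these data known, so the counts here and below are descriptive.

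Fos (mm9 chr12:86814850-86818218, plus strand) encodes the inducible FOS subunit of AP-1. It was at 2.01, 1.43, 2.31 and 1.56 RPKM in DKO tumors 1 to 4, at 1.34, 0.667, 2.02 and 1.85 in DKO livers 1 to 4, and at 0.299, 0.298, 0.442 and 0.604 in wild-type livers 1 to 4. All 8 DKO libraries were above all wild-type livers, and the lowest, DKO liver 2, was only just so. These are few reads, namely 67, 38, 69 and 49 in tumors, 34, 14, 52 and 36 for DKO livers, and 5, 8, 11 and 18 for wild-type livers. On the log2(RPKM + 1) scale, which understates changes of low genes, Fos in DKO tumors exceeded wild-type livers by 1.0 (SE 0.19, limma adjusted p = 0.0257). With an offset of 0.1 in place of 1 the difference was 1.93 (limma adjusted p = 0.0201). DKO livers were higher than wild-type livers by 0.78 (SE 0.19), which did not pass (limma adjusted p = 0.226), and tumors exceeded DKO livers by 0.22 (SE 0.19, limma adjusted p = 0.595).

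Fosb (mm9 chr7:19888044-19895393, minus strand), a close relative of Fos, was near the limit of detection. It had 4, 1, 4 and 11 reads in DKO tumors, 7, 2, 7 and 3 in DKO livers and 0, 2, 3 and 2 in wild-type livers. The 0 in wild-type liver 1 allows up to 0.0995 RPKM (3 reads, counting error only). No library reached 0.5 RPKM, so Fosb was left out of the fit. Its two-sided exact permutation p, over 4 against 4 libraries, was 0.257 for DKO tumors against wild-type livers, 0.0571 for DKO livers against wild-type livers and 0.657 for DKO tumors against DKO livers. A difference was not detectable at this depth.

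Neither of the JUN family members, Jun and Junb, passed between tumors and wild-type livers, and their differences had opposite signs. Jun (mm9 chr4:94715726-94718912, minus strand) was at 3.64, 7.98, 10.3 and 8.60 RPKM in DKO tumors, 4.77, 4.82, 16.4 and 4.77 in DKO livers, and 3.18, 3.89, 5.54 and 2.93 in wild-type livers. Tumors 2, 3 and 4 lay above every wild-type liver and tumor 1 among them. The log2 difference of DKO tumors from wild-type livers was 0.78 (SE 0.37, limma adjusted p = 0.274). Junb (mm9 chr8:87500830-87502646, minus strand) was at 5.0, 3.03, 4.43 and 5.16 RPKM in DKO tumors, 13.6, 5.16, 8.71 and 6.41 in DKO livers, and 9.93, 6.66, 4.26 and 6.57 in wild-type livers. No tumor was above the lowest DKO liver beyond rounding, since tumor 4 and DKO liver 2 were both at 5.16, and wild-type liver 3 was the only wild-type liver within the range of the tumors. The log2 difference was -0.51 (SE 0.27, limma adjusted p = 0.329) for DKO tumors against wild-type livers and -0.75 (SE 0.27, limma adjusted p = 0.205) for DKO tumors against DKO livers.

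As a description, Jun divided by Junb was 0.727, 2.63, 2.34 and 1.67 in DKO tumors, 0.351, 0.934, 1.88 and 0.744 in DKO livers, and 0.321, 0.585, 1.30 and 0.446 in wild-type livers. Jun exceeded Junb in 3 of 4 tumors, 1 of 4 DKO livers and 1 of 4 wild-type livers, and the groups overlapped.

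Egr1 (mm9 chr18:35020860-35024609, plus strand) had the widest relative spread among wild-type livers. It was at 34.4, 24.4, 20.3 and 20.5 RPKM in DKO tumors, 6.92, 6.85, 17.4 and 28.8 in DKO livers, and 27.8, 3.79, 4.35 and 15.6 in wild-type livers. The coefficient of variation was 26.6% in DKO tumors, 69.8% in DKO livers and 88.0% in wild-type livers. Wild-type liver 1 and DKO liver 4 lay within the range of the tumors. The log2 difference of DKO tumors from wild-type livers was 1.27 (SE 0.58, limma adjusted p = 0.257), and it was 1.75 without wild-type liver 1 (limma adjusted p = 0.189). Against DKO livers it was 0.90 (SE 0.58, limma adjusted p = 0.462), higher in 3 of the 4 animals.

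Atf3 (mm9 chr1:192994175-193007211, minus strand) encodes a stress-induced ATF/CREB factor that often represses its targets. It was at 3.24, 9.64, 7.19 and 18.2 RPKM in DKO tumors, 3.56, 2.47, 8.62 and 2.62 in DKO livers, and 0.507, 1.19, 2.55 and 0.960 in wild-type livers. Every tumor exceeded every wild-type liver, DKO liver 2 did not, and the lowest and highest of the 12 libraries differed 35.8 times, the largest ratio among the 8 members tested. DKO tumors exceeded wild-type livers by 2.07 on the log2(RPKM + 1) scale (SE 0.45, limma adjusted p = 0.0382). The difference was 1.15 for DKO livers against wild-type livers (SE 0.45, limma adjusted p = 0.357) and 0.92 for DKO tumors against DKO livers (SE 0.45, limma adjusted p = 0.336). Between tumor and liver of the same animal Atf3 was higher in the tumor in animals 2 and 4 and lower in animals 1 and 3. Ddit3, which like Atf3 is a target of the factor ATF4 in amino acid and endoplasmic reticulum stress, was at 5.90, 13.6, 12.3 and 14.1 RPKM in DKO tumors, 7.69, 5.26, 13.0 and 5.69 in DKO livers, and 3.16, 4.39, 5.89 and 5.97 in wild-type livers, and did not pass (log2 difference of DKO tumors from wild-type livers 1.06, SE 0.30, limma adjusted p = 0.081). It was chosen after its values were seen.

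Ier3 (mm9 chr17:35958657-35959855, plus strand), known as IEX-1, encodes a regulator of cell survival. It was at 0.805, 0.939, 0.898 and 2.63 RPKM in DKO tumors, 1.37, 0.640, 0.893 and 0.890 in DKO livers, and 0.460, 0.215, 0.309 and 0.322 in wild-type livers. As with Fos, the DKO libraries and the wild-type livers did not overlap, but the counts are low, with 13 to 43 reads in tumors, 7 to 18 in DKO livers and 3 to 5 in wild-type livers. The log2 difference was 0.74 (SE 0.21, limma adjusted p = 0.0789) for DKO tumors and 0.54 (SE 0.21, limma adjusted p = 0.349) for DKO livers against wild-type livers. Among 25 alternative settings for DKO tumors against wild-type livers it passed in 2, median-of-ratios scaling (0.76, limma adjusted p = 0.0398) and an offset of 0.1 (1.60, limma adjusted p = 0.0482), and limma adjusted p over all of them ran up to 0.426.

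Ier2 (mm9 chr8:87185229-87186750, minus strand), which encodes a small nuclear protein, varied least of the members tested, the highest library being 2.5 times the lowest. It was at 9.80, 8.95, 11.7 and 7.43 RPKM in DKO tumors, 15.2, 14.8, 14.1 and 11.4 in DKO livers, and 18.6, 9.80, 8.01 and 12.6 in wild-type livers. The log2 difference of DKO tumors was -0.29 (SE 0.22, limma adjusted p = 0.506) against wild-type livers and -0.52 (SE 0.22, limma adjusted p = 0.269) against DKO livers, with the tumor lower in 4 of 4 animals.

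Dusp1 (mm9 chr17:26642535-26645405, minus strand) was at 6.49, 5.50, 14.8 and 6.51 RPKM in DKO tumors, 13.8, 25.7, 20.3 and 6.92 in DKO livers, and 6.03, 11.9, 6.58 and 4.29 in wild-type livers. DKO livers 1, 2 and 3 were above every wild-type liver, whereas the tumors spread over the range of the wild-type livers with tumor 3 above it. The log2 difference was 0.17 (SE 0.39, limma adjusted p = 0.869) for DKO tumors and 1.05 (SE 0.39, limma adjusted p = 0.349) for DKO livers against wild-type livers. Its small value for the tumors turned to -0.12 without DKO tumor 3 and -0.02 without wild-type liver 4. DKO tumors differed from DKO livers by -0.88 (SE 0.39, limma adjusted p = 0.293), lower in 4 of 4 animals.

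**Figure D2:**
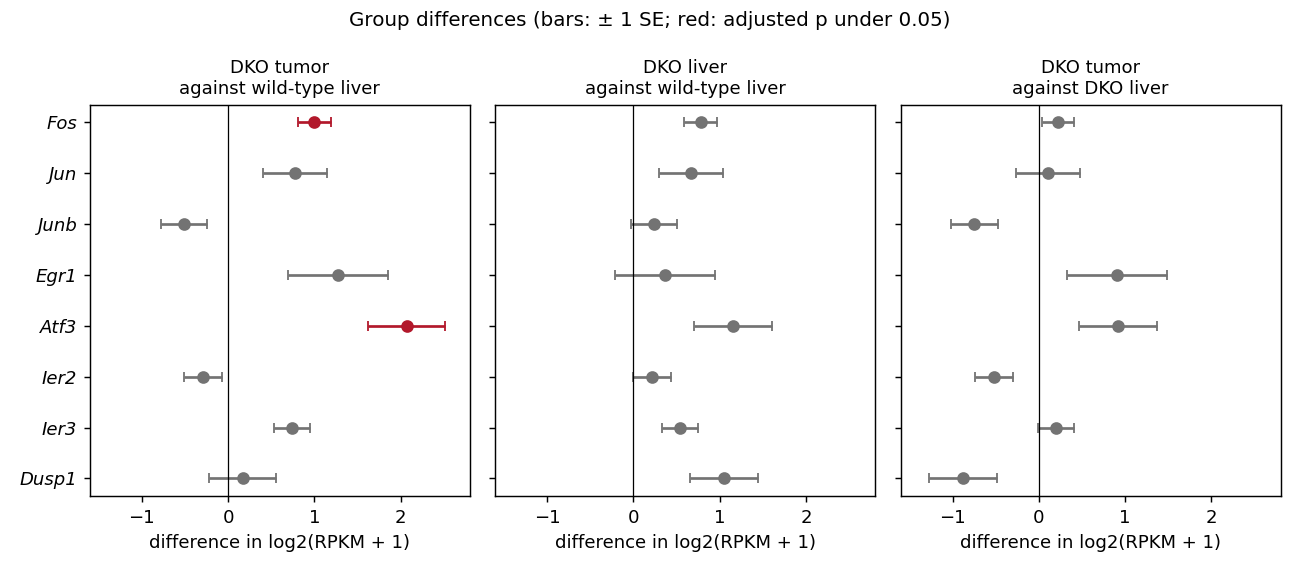
Difference in log2(RPKM + 1) of the 8 members tested, for DKO tumor against wild-type liver, DKO liver against wild-type liver, and DKO tumor against DKO liver, with bars of 1 SE. Fos (1.0) and Atf3 (2.07) in the first panel are the only values past an adjusted p of 0.05, and Junb, Ier2 and Dusp1 lie below 0 in the third.

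Both calls were lost in some fits with a library left out. When each of the 12 libraries was left out in turn, Fos passed in 7 fits and Atf3 in 6. Their log2 differences were 0.92 to 1.06 and 1.71 to 2.44. Over all genes, 216 were called with the 12 libraries together. Fits where Fos lost its call had 16 to 83 called genes, and those where it kept the call had 168 to 413. For Atf3 the same ranges were 16 to 203 and 37 to 413. Fos lost its call without DKO tumor 1 (limma adjusted p = 0.0644), DKO tumor 2 (0.0614), wild-type liver 1 (0.094), wild-type liver 2 (0.0621) or wild-type liver 4 (0.0732). Atf3 lost its call without DKO tumor 2 (limma adjusted p = 0.115), DKO tumor 4 (0.0645), DKO liver 1 (0.0526), wild-type liver 1 (0.134), wild-type liver 2 (0.0856) or wild-type liver 4 (0.118). The table names carry the tag L03 for all tumors and wild-type livers 3 and 4, whereas wild-type livers 1 and 2 and the DKO livers carry L02; the labels do not define these tags. Within L03, 4 tumors against 2 wild-type livers gave 0.88 for Fos (limma adjusted p = 0.223) and 1.80 for Atf3 (limma adjusted p = 0.405), and 0.220% of all genes passed there. With the tag as a covariate the differences were the same by construction, at limma adjusted p = 0.235 for Fos and 0.332 for Atf3, and 0.0264% of genes passed. Over all alternatives limma adjusted p was 0.0122 to 0.235 for Fos and 0.0162 to 0.405 for Atf3.

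The sources used here do not give the time of sampling, so clock genes were read beside the members. Dbp, a clock output gene, was at 3.51, 4.85, 15.1 and 38.6 RPKM in DKO tumors, 4.28, 3.77, 30.8 and 21.7 in DKO livers, and 68.0, 40.7, 48.2 and 110.0 in wild-type livers, so all DKO libraries were lower. Tef, a related factor, was at 11.7 to 49.1, 29.4 to 51.5 and 34.7 to 69.6 RPKM in DKO tumors, DKO livers and wild-type livers. Arntl, a core clock gene, was at 9.24 and 10.9 RPKM in DKO tumors 1 and 2, 11.2 and 9.95 in DKO livers 1 and 2, and at or below 2.26 in the other 8 libraries. Of the 13 clock genes tested, 0 passed in limma and 10 had an unadjusted p under 0.05 for DKO tumors against wild-type livers, and their median log2 difference was -0.75. Over all genes 19.2% had such a p. With the Arntl level as a covariate, Fos differed by 1.22 (limma adjusted p = 0.0207) and Atf3 by 2.57 (limma adjusted p = 0.0338). Without DKO animals 1 and 2 the differences were 1.05 for Fos and 2.52 for Atf3, with limma adjusted p of 0.106 and 0.149. Arntl was high only in DKO animals 1 and 2, whereas Dbp was below all wild-type livers in every DKO library. The Arntl covariate therefore does not carry the whole clock difference, and clock state and group cannot be told apart here. The part of clock state in the Fos and Atf3 values was not tested.

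DKO livers were set against wild-type livers to find differences outside the tumors. No member passed in limma or in limma-voom, and no gene of 11351 did in limma (0%). Unadjusted limma p was under 0.05 for 4 of the 8 members tested (Fos, Atf3, Ier3 and Dusp1), where 12.4% of all genes had such a p. The groups did not overlap for Fos and Ier3, the 2 members tested through the DKO libraries, against 7.59% of all genes in either direction, 5.62% higher and 1.96% lower. All 8 log2 differences were above 0, as were 60.5% of all genes, and the median of the 8 was 0.61, against 0.08 for all genes. These medians moved with scaling. They were 0.53 and -0.0102 with median-of-ratios scaling, and 0.48 and -0.0125 with quantile normalization. The share of 60.5% was counted without such scaling. Within L02, where 4 DKO livers faced 2 wild-type livers, the differences were 0.89 for Fos, 1.42 for Atf3, 0.75 for Dusp1, 0.54 for Ier3 and -0.03 for Junb, and 0 members passed in limma. Both comparisons with wild-type livers share those 4 libraries, so their values do not bear on each other independently.

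DKO tumors were then set against DKO livers of the same animals. No member passed in limma, in limma-voom or with the animal as a block, and 0.00881% of all genes (1 gene) passed without the block and 0.625% (71 genes) with it over the 8 libraries. The groups overlapped for all 8 members tested, against 6.20% of all genes without overlap, 2.12% higher and 4.08% lower. The log2 difference was above 0 for 5 of the 8, as for 37.2% of all genes, and the median of the 8 was 0.15, against -0.09 for all genes. These medians moved with scaling. They were 0.24 and 0.0185 with median-of-ratios scaling, and 0.23 and 0.0128 with quantile normalization. The share of 37.2% was counted without such scaling. Unadjusted limma p was under 0.05 for 3 of the 8 members tested, where 16.1% of all genes had such a p. The 3 were Junb, Ier2 and Dusp1, each lower in the tumor in 4 of 4 animals. Fos, Egr1 and Ier3 were higher in the tumor in 3 of 4 animals, and Jun and Atf3 in 2 of 4. For Ier3, animal 3 was nearly a tie, at 0.898 RPKM in the tumor and 0.893 in the liver. With the animal as a block over the 8 libraries, limma adjusted p was 0.143 for Junb, 0.196 for Ier2 and 0.221 for Dusp1. All tumors carry one tag and all DKO livers the other, so tag and tissue cannot be told apart within these 8 libraries. With the tag as a covariate over 12 libraries, where only the wild-type livers separate them, the differences were -0.21 for Junb, -0.12 for Ier2 and -0.29 for Dusp1.

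Markers of other liver cells were read in the same libraries, and the summed ranges of each list overlapped between DKO tumors and DKO livers. The summed RPKM of 11 macrophage markers was 107 to 356 in DKO tumors, 279 to 836 in DKO livers and 161 to 413 in wild-type livers, and 10 of the 11 were lower in DKO tumors than in DKO livers. The most abundant were the Kupffer cell genes Clec4f, at 2.63 to 81.2 RPKM in DKO tumors, 60.3 to 150.0 in DKO livers and 28.5 to 88.9 in wild-type livers, and Cd5l, at 3.04 to 54.1, 44.9 to 164 and 25.8 to 77.6 in the same groups. The 10 stellate cell and fibroblast markers summed to 69.4 to 273 RPKM in DKO tumors, 122 to 380 in DKO livers and 117 to 161 in wild-type livers, all 10 lower in tumors than in DKO livers, led by Dcn and Rgs5, which were at 32.9 to 224 and 7.4 to 30.9 RPKM over the 12 libraries. The 7 neutrophil markers summed to 4.75 to 36.4, 10.1 to 147 and 6.09 to 13.5 RPKM, the 12 lymphocyte markers to 2.52 to 14.6, 8.99 to 24.7 and 4.75 to 16.2, and the 10 endothelial markers to 46.0 to 118, 84.8 to 137 and 55.4 to 84.1, in DKO tumors, DKO livers and wild-type livers. The 6 cholangiocyte markers summed to 18.5 to 117, 34.0 to 171 and 29.7 to 42.5 RPKM and the 6 red blood cell genes to 116 to 449, 153 to 272 and 148 to 247, in the same groups. Abundant members of these lists were S100a9 and S100a8, Cd3e and Cd79b, Clec4g and Eng, Spp1, and Hbb-b2 and Hbb-b1, the last pair being near-identical globin genes whose reads may be shared. No marker of any of these lists was at 0 in all libraries of a group. Of these lists 0 genes passed in limma or limma-voom in any comparison, and for DKO tumors against DKO livers 7 macrophage, 3 stellate cell and fibroblast, 1 neutrophil, 5 lymphocyte, 3 endothelial, 1 cholangiocyte and 0 red blood cell genes had an unadjusted limma p under 0.05. Over all genes 16.1% had such a p in that comparison. Most markers of the other lists were lower there too. Log2 differences were above 0 for 0 of 5 neutrophil, 0 of 10 lymphocyte and 2 of 10 endothelial genes tested. They were above 0 for 1 of 4 cholangiocyte and 1 of 6 red blood cell genes, and for 37.2% of all genes. The part of these cells in the lower Junb, Ier2 and Dusp1 values was not tested. For DKO tumors against wild-type livers, log2 differences were above 0 for 2 of 11 macrophage, 1 of 10 lymphocyte, 5 of 10 stellate cell and fibroblast, 7 of 10 endothelial, 5 of 5 neutrophil, 4 of 4 cholangiocyte and 6 of 6 red blood cell genes tested, with medians of -0.49, -0.25, 0.01, 0.15, 0.12, 0.31 and 0.14. The endothelial gene Emcn, chosen after its values were seen, was higher in DKO tumors without overlap, at 3.51, 2.44, 4.07 and 10.6 RPKM against 0.831, 1.15, 1.67 and 1.29 in wild-type livers, and did not pass (log2 difference 1.31, SE 0.32, limma adjusted p = 0.0574). Clec4g and Stab2 of the same list, also chosen after their values were seen, went the other way, with overlap. Clec4g averaged 17.0 RPKM in DKO tumors against 30.5 in wild-type livers, and Stab2 2.67 against 3.61. The part of these cells in the higher Fos and Atf3 values was not tested.

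Ranking the 12 libraries by each gene gave different orders for different members. DKO liver 3 was among the 3 highest libraries for 6 of the 9 genes, DKO liver 1 and DKO tumor 4 for 4 each, and wild-type livers 2, 3 and 4 for 0. Wild-type liver 1 was among the 3 highest for Junb, Egr1 and Ier2 and among the 3 lowest for 5 others. The mean difference in rank over the 12 libraries was 1.5 for Atf3 and Ier3, the most alike of the 36 pairs, 1.83 for Fosb and Atf3, and 2.17 for Junb and Ier2. It was 5.50 for Egr1 and Dusp1 and 5.0 for Jun and Junb, the least alike, and the median over pairs was 3.42. These values describe 12 libraries that share groups and animals.

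**Figure D3:**
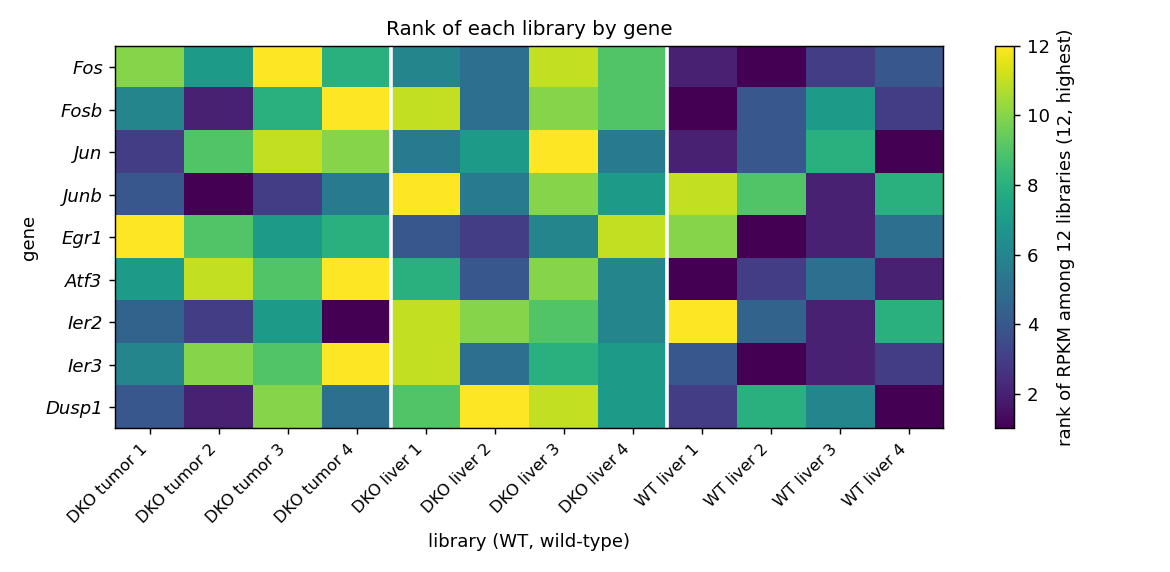
Rank of each library by RPKM for each of the 9 genes (12, highest), with libraries in columns as DKO tumor, DKO liver and wild-type liver (WT). The right block is dark (low rank) for Fos, Atf3 and Ier3, and wild-type liver 1 is bright for Junb, Egr1 and Ier2.

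By the same measure, the genes outside the set that ordered the libraries most like each member were sought, 2 per member, among 10063 genes with a mean of at least 1 RPKM. For Atf3 they were the integrin gene Itga6, at a mean rank difference of 0.167, and the activin-binding gene Fst at 0.5, where the median candidate was at 3.67. For Fos they were Socs5 (0.833) and the myosin gene Myh9 (1.17), and for Ier3 the tight junction gene Marveld2 (0.5) and the growth factor binding gene Igfbp1 (1.0). For Jun they were Cct3 and Clic4 (0.667 each), for Junb Bri3 and Erf (0.833 each), and for Ier2 the tight junction gene Ocln (1.17). For Dusp1 they were Thop1 (0.667) and Cd300lg (1.0), for Fosb, with its few reads, Gpx3 and Lrrc8c (0.667 each), and for Egr1 Serpinb8 (1.33) and Alb (1.67). The closest of so many candidates is close by selection, and nothing is drawn from it about control.

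Other genes of the pathway were read by role. Among the 31 other immediate early genes tested of 42 listed, 2 rose and 0 fell in DKO tumors against wild-type livers, with a median log2 difference of -0.10 where all genes had -0.02. Of all genes tested, 1.23% were called higher and 0.670% lower. Btg2, an anti-proliferative gene, was at 24.9, 18.2, 19.8 and 12.5 RPKM in DKO tumors, 4.18, 7.24, 14.2 and 9.93 in DKO livers, and 2.11, 3.70, 4.23 and 1.87 in wild-type livers (DKO tumors against wild-type livers, log2 difference 2.33, SE 0.31, limma adjusted p = 0.00524). It was higher in the tumor than in the liver in 4 of 4 animals, and it passed against wild-type livers in 24 of 26 alternatives. Ier5, a stress-inducible relative of Ier2, was at 4.14, 5.06, 3.74 and 2.67 RPKM in DKO tumors, 3.01, 2.65, 3.75 and 3.23 in DKO livers, and 0.574, 2.27, 2.06 and 1.16 in wild-type livers (log2 difference of DKO tumors from wild-type livers 1.0, SE 0.23, limma adjusted p = 0.0416), and passed in 13 of 26. Without overlap 5 genes of this list were higher in tumors (Btg2, Ier5, Hes1, Klf6 and Nr4a1) and 1 was lower, against 5.57% and 6.32% of all genes. The lower one was Nfkbia, an inhibitor of NF-kappaB, at 11.5, 12.4, 20.8 and 16.7 RPKM in DKO tumors and 38.3, 43.7, 23.8 and 28.4 in wild-type livers. It did not pass (log2 difference -1.08, SE 0.31, limma adjusted p = 0.0851). Hes1, Klf6, Nr4a1 and Nfkbia were chosen after their values were seen, and none of these 4 passed.

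Of 22 negative feedback genes tested, 2 rose and 0 fell in DKO tumors against wild-type livers (median 0.16), and both are phosphatases of the family of Dusp1 that act mainly on ERK. Over all genes 1.23% were called higher and 0.670% lower in this comparison. Without overlap 3 were higher (Dusp5, Dusp6 and Dusp16) and 1 was lower, against 5.57% and 6.32% of all genes. The lower one was Errfi1, an inhibitor of the EGF receptor, at 275, 235, 352 and 184 RPKM in DKO tumors, 317, 297, 332 and 285 in DKO livers, and 472, 413, 467 and 367 in wild-type livers. It did not pass (log2 difference of DKO tumors from wild-type livers -0.75, SE 0.21, limma adjusted p = 0.0841), nor did Dusp16 (0.63, SE 0.20, limma adjusted p = 0.111), and these 2 were chosen after their values were seen. Dusp5 was at 6.73, 5.11, 3.09 and 4.72 RPKM in DKO tumors, 0.859, 2.50, 2.46 and 1.87 in DKO livers, and 0.759, 1.01, 0.510 and 0.791 in wild-type livers. Every tumor was above every DKO liver and every wild-type liver. The log2 difference of DKO tumors was 1.71 against wild-type livers (SE 0.23, limma adjusted p = 0.00453, passing in 24 of 26 alternatives) and 1.02 against DKO livers (SE 0.23, limma adjusted p = 0.0793). Dusp6 was at 22.0, 38.6, 30.6 and 41.2 RPKM in DKO tumors, 17.5, 14.1, 30.2 and 16.2 in DKO livers, and 6.64, 12.5, 16.2 and 15.0 in wild-type livers. DKO tumors exceeded wild-type livers by 1.36 (SE 0.29, limma adjusted p = 0.0327, passing in 16 of 26) and higher in the tumor than in the liver in 4 of 4 animals.

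Within L03 the differences of DKO tumors from wild-type livers were 2.32 for Btg2 (limma adjusted p = 0.0246), 1.81 for Dusp5 (0.0314), 1.0 for Dusp6 (0.293) and 0.91 for Ier5 (0.293). With the tag as a covariate over 12 libraries none of these 4 passed, and limma adjusted p was 0.0781 for Btg2 and Dusp5, 0.348 for Dusp6 and 0.332 for Ier5. Without DKO animals 1 and 2 none of the 4 passed either. There limma adjusted p was 0.0528 for Btg2 and Dusp5, 0.161 for Dusp6 and 0.295 for Ier5. The alternatives share libraries, so the numbers passed do not count independent checks.

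**Figure D4:**
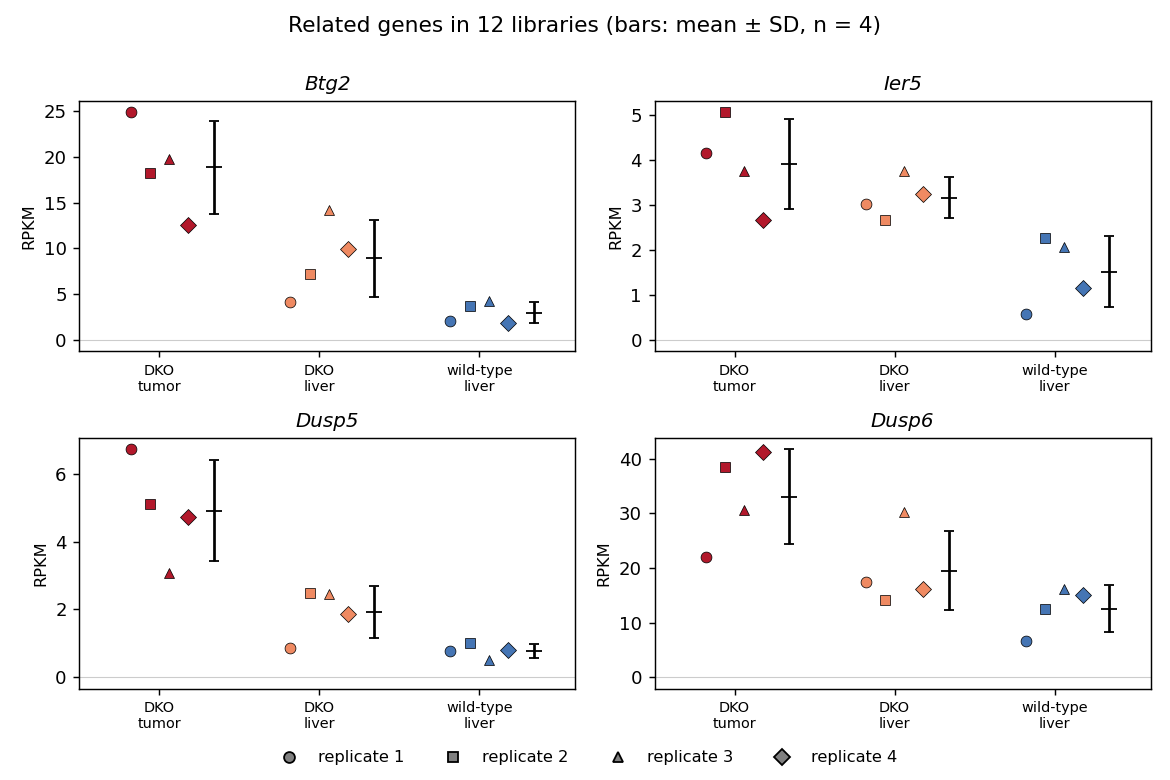
RPKM of Btg2, Ier5, Dusp5 and Dusp6, called for DKO tumors against wild-type livers, per library, with the group mean ± SD. The tumors lie above all wild-type livers in each panel, and for Dusp5 also above all DKO livers.

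No gene of the lists upstream of or beside the response passed. Of 27 MAP kinase, SRF and ternary complex factor genes tested, 0 passed in limma or limma-voom in DKO tumors against wild-type livers, and 3 had an unadjusted limma p under 0.05 (median 0.07). The 2 with the highest means were Egfr, at 35.5 to 119 RPKM in DKO tumors, 59.1 to 82.9 in DKO livers and 31.0 to 123 in wild-type livers, and Map2k3, at 21.6 to 46.2, 30.6 to 48.2 and 41.6 to 54.9 RPKM in the same groups. Of 17 other AP-1 and ATF/CREB factors tested, 0 passed in limma or limma-voom and 4 had an unadjusted limma p under 0.05 (median 0.09). The 2 with the highest means were Atf5, at 98.3 to 241 RPKM in DKO tumors, 138 to 263 in DKO livers and 145 to 218 in wild-type livers, and Atf4, at 97.0 to 136, 81.7 to 135 and 56.8 to 97.1. Of 10 heat shock genes tested 0 passed in limma or limma-voom and 3 had an unadjusted limma p under 0.05 (median -0.05), with Hspd1 at 32.2 to 56.9 RPKM in DKO tumors, 34.4 to 54.8 in DKO livers and 40.1 to 45.4 in wild-type livers, and Hspe1 at 22.4 to 36.1, 16.3 to 38.8 and 27.7 to 42.4. In DKO livers against wild-type livers 0 genes of any of these lists passed in limma, and 4 MAP kinase and SRF genes, 2 AP-1 and ATF/CREB factors, 9 other immediate early genes, 4 feedback genes and 2 heat shock genes had an unadjusted limma p under 0.05. In DKO tumors against DKO livers 0 passed as well, with 4, 3, 7, 5 and 2 such genes in the same lists. Over all genes 19.2% had an unadjusted limma p under 0.05 for DKO tumors against wild-type livers. The share was 12.4% for DKO livers against wild-type livers and 16.1% for DKO tumors against DKO livers.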

How the data were processed

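Libraries were made with a SOLiD total RNA kit after selection of polyadenylated RNA, per the labels' protocols. The deposited values are RPKM, made by the authors, with 1 library per table and 21247 RefSeq transcripts in mm9 coordinates. The submitters' processing notes name BWA and mm9. The counting tool and filters are not given in the sources used here. RPKM times exon length stepped in whole reads for at least 99.991% of values (tolerance 0.05 of a read), which gave depth and read numbers.

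The longest transcript per symbol was kept. The 11351 genes that reached 0.5 RPKM in 4 or more libraries were tested on a log2 scale after adding 1 RPKM, using limma 3.58.1 (R 4.3.3), fitted over 12 libraries with a mean per group, an intensity trend and robust shrinkage, two-sided, with Benjamini-Hochberg adjustment at 0.05. The fit was also run on simulated data with planted differences and independent noise per library. Those data held no tag effect, shared animals or read counting, so the run does not bear on these limits. Single values used exact permutation tests over libraries, which cannot give p under 0.0286. Tables and plots were made with Python 3.11.15, numpy 2.4.6, pandas 2.3.3, scipy 1.17.1 and matplotlib 3.10.9. Members and gene lists were chosen with earlier results of these data known. Named genes are the 9 members, up to 4 called genes per list and comparison, or the 2 with the highest mean where none was called, and the 2 nearest genes by rank per member; a few of these are not reported here.

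Tumor and DKO liver of the same number share an animal code in the table names. Correlations of their deviations from the group means were 0.12, 0.35, 0.37 and 0.0 for animals 1 to 4. Tumor and DKO liver of different animals gave -0.25 to 0.15, and DKO livers with wild-type livers gave up to 0.36. The animal was used as a block in an alternative. Other alternatives changed the offset, filter, scaling, shrinkage, libraries, transcript, tag or clock covariate, or used limma-voom on the recovered reads. Wild-type codes all differ, but the labels do not say how animals were sampled, so p-values measure the spread between these libraries. Depth intervals cover counting error only, since reads carry no molecular identifiers.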

Additional observations from a re-analysis of the deposited data

Results flagged for a closer look

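Each member was checked in each group for a library far from the other 3, by the gap to the nearest library over the range of the group (Dixon's limit at 95%), in 27 groups, where chance marks about 1 in 20. There were 3 such values. Jun was at 16.4 RPKM in DKO liver 3, with the other DKO livers at 4.77 to 4.82 (gap over range 0.996). That library also had the highest sum of neutrophil markers, 147 RPKM against 10.1 to 37.2 in the other DKO livers, and the highest sums of stellate cell and fibroblast markers (380) and cholangiocyte markers (171), whose part in the value was not tested. Ier3 was at 2.63 RPKM in DKO tumor 4, with 43 reads, and at 0.805 to 0.939 in the other tumors (0.926). Dusp1 was at 14.8 RPKM in DKO tumor 3 and at 5.50 to 6.51 in the other tumors (0.892). That tumor had the highest sums of macrophage (356) and stellate cell and fibroblast markers (273) among the tumors, whose part in the value was not tested.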

How the results depend on the processing

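For DKO tumors against wild-type livers, 2 members were called. The number was 1 with no filter (Fos), with a filter of 2 RPKM (Atf3, since Fos and Ier3 were then not tested) and with limma-voom on the recovered reads (Fos). It was 0 with the tag as a covariate, within L03 and without DKO animals 1 and 2, and 3 with median-of-ratios scaling or an offset of 0.1 (Fos, Atf3 and Ier3). Leaving out 1 library at a time gave 0 to 2, with 16 to 413 genes called over the whole set. Over all genes 216 were called (64.8% higher), against 598 with median-of-ratios scaling, 478 with quantile normalization, 303 in the 8 libraries alone, 112 with no filter, 25 within L03, 10 without DKO animals 1 and 2 and 3 with the tag as a covariate. The replicate block over 12 libraries left 2 members called here and 0 in both other comparisons, and the block over 8 libraries 0 for DKO tumors against DKO livers, so it changed no member's call. The numbers pair tumor and liver by animal and pair nothing with wild-type livers.

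Every alternative gave 0 called members for DKO livers against wild-type livers and for DKO tumors against DKO livers, leaving out 1 library included (0 to 0). Changes of sign were all of values that did not pass, and the cause was not tested. For DKO tumors against wild-type livers Dusp1 ran from -0.12 to 0.41 when 1 library was left out (-0.02 without wild-type liver 4). For DKO livers against wild-type livers Egr1 was -0.01 without DKO liver 4 or wild-type liver 2 (range -0.01 to 0.85), and Junb was -0.03 with the tag as a covariate and within L02. For DKO tumors against DKO livers Egr1 was -0.13 and Fos -0.01 without DKO animals 1 and 2, Fos -0.01 and Jun -0.06 with the tag as a covariate, Jun -0.03, -0.02, -0.03 and -0.05 without DKO liver 1, 2 or 4 or DKO tumor 3 (range -0.05 to 0.5), and Ier3 -0.04 without DKO tumor 4 (range -0.04 to 0.3). Depth limits Fosb, Ier3 and Fos most, at 0 to 11, 3 to 43 and 5 to 69 reads per library.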
